A study of Sus scrofa with 6 samples.

Results

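Fibroblast-like cells made up 2722 of the 41956 cells that lay inside the UMI and gene limits in the porcine midbrain-like organoids (pMLOs) of day 28 (D28) and day 45 (D45). A cell was counted as fibroblast-like when it held at least 2000 UMIs and at most 7000 detected genes, had 1 or more UMI of at least 3 of the 4 genes COL1A1, COL3A1, LUM and DCN, and had fewer than 3 UMIs of the neuronal gene STMN2. A UMI (unique molecular identifier) marks 1 captured mRNA molecule, so PCR copies are not counted again. The cells were thus selected on the measured UMIs of these 5 genes, whose levels are given only as a description. The 4 libraries held 68121 cell barcodes, of 104820 in the whole series.

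The pMLOs were grown from a single porcine embryonic stem cell line, IVF_1_ pESC_FIW, and every library carries the same cell type label, midbrain dopaminergic neurons. The organoids of D28 and D45 shared a treatment: embryoid bodies received SB431542, Noggin, SHH-C24II and CHIR99021, then FGF8, were embedded in Matrigel, and were matured with BDNF, GDNF, ascorbic acid, db-cAMP and DAPT. The groups used here differ only in the day of culture, D28 and D45, each with 2 libraries named A and B, which the study describes as biological duplicates. A D11 pair, taken before the Matrigel and maturation steps, was used only to count cells that meet the same rule. The stem cells had been kept on inactivated mouse embryonic fibroblasts, which were removed by plating on gelatin before embryoid bodies were made. Reads were aligned to the pig genome alone, and whether any fibroblast-like cell was a mouse cell was not tested.

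Fibroblasts are the cells that build and renew the collagen-rich extracellular matrix of connective tissue. They secrete fibril-forming collagens, the small proteoglycans lumican (LUM) and decorin (DCN) that coat the fibrils, and the enzymes that trim and cross-link them. In the brain they lie in the meninges and around large vessels, where they contribute to the basement membrane at the brain surface and release retinoids and chemokines, and they arise from mesoderm and neural crest rather than from the neural tube. Mural and smooth muscle cells, cartilage cells and some radial glia also make collagens, so collagen transcripts alone do not define a fibroblast.

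The promoter of COL1A2 is shown because this gene, which encodes the second chain of type I collagen, carries the results on fibroblast identity and was not used by the rule. The sequence is the 150 bases before the RefSeq gene start in Sscrofa11.1, on the plus strand, at chr9:74174334-74174483 (gene at 74174484 to 74210407). Capitals mark matches to CCAAT or TATAA on either strand.
COL1A2: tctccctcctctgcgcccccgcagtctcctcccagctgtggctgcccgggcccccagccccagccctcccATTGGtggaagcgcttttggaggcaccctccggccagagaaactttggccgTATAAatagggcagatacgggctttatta
The COL1A2 window held CCAAT on the minus strand, read as ATTGG, with its first base at position -80 from the gene start, and TATAA on the plus strand at -29, and the motifs did not overlap. Of 19570 protein-coding genes, 23.1% held CCAAT and 10.3% held TATAA in windows of the same length, and a match is a description of letters, not of a bound factor.

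The share of fibroblast-like cells varied more between libraries of a day than between days. In D28 A 1130 of 9240 cells met the rule (12.2%, exact Clopper-Pearson 95% interval 11.6 to 12.9), and in D28 B 115 of 11070 (1.04%, 0.858 to 1.25). In D45 A it was 409 of 10506 (3.89%, 3.53 to 4.28) and in D45 B 1068 of 11140 (9.59%, 9.05 to 10.1). The means were 6.63% ± 7.91 (SD, n = 2) on D28 and 6.74% ± 4.03 (SD, n = 2) on D45. The days overlapped, with both D45 libraries lying between the D28 libraries, and an exact permutation test of 2 against 2 libraries (two-sided) cannot give a p below 0.33, so none was run. The intervals cover counting error only. On D11 the rule found 8 of 13048 and 18 of 14675 cells.

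**Figure D1:**
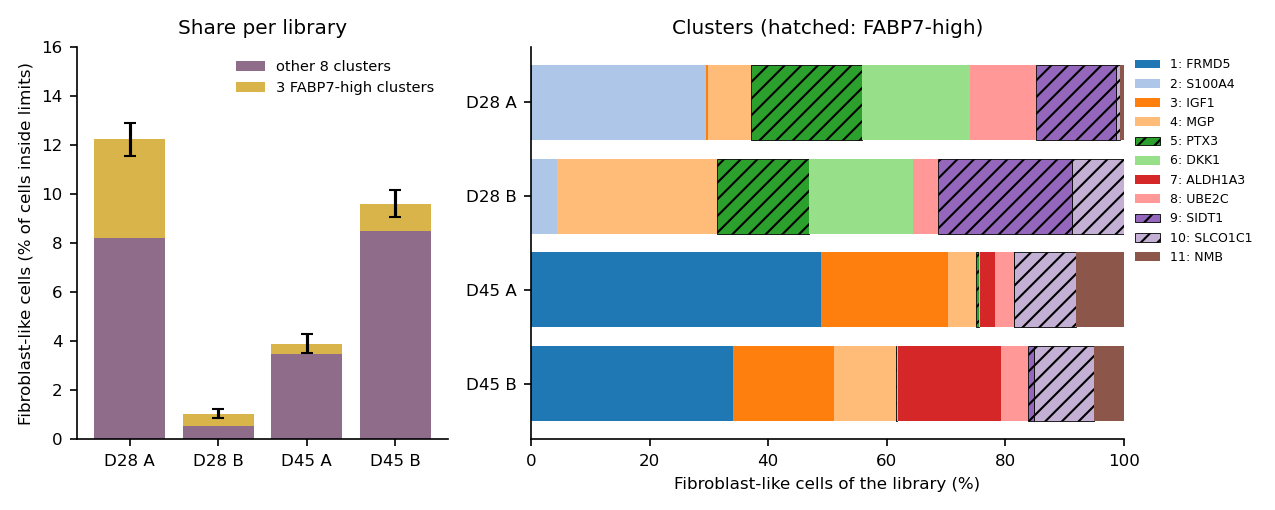
Left, fibroblast-like cells as a percentage of cells inside the limits in each library, split into the 3 clusters with high FABP7 and the other 8 clusters, with exact 95% intervals of the whole share. Right, the 11 clusters as percentages of the fibroblast-like cells of each library; cluster 1 holds 48.9% of D45 A, and cluster 2 holds 29.5% of D28 A and no D45 cell.

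The rule in part selects for depth, since a deeper cell more readily shows UMIs of COL1A1, COL3A1, LUM and DCN. With every cell thinned to 2000 UMIs, 811, 57, 315 and 841 cells met it in D28 A, D28 B, D45 A and D45 B, against 1130, 115, 409 and 1068. Fibroblast-like cells were deeper than their neighbours, which the rule in part builds in. Their median UMI count was 12604 and 17388 in D28 A and B and 13600 and 13340.5 in D45 A and B, against 8976 to 9918 in the other cells of the libraries, and mitochondrial UMIs were 2.05% to 2.18% against 0.681% to 1.16%. Whole libraries held 112777548 to 135311951 UMIs. The fibroblast-like sums held 15995777, 2020182, 5855577 and 15457136 UMIs in D28 A, D28 B, D45 A and D45 B, so D28 B held the fewest of the 4. Levels below are in CPM, the UMIs of a gene scaled to a sum of 1000000 UMIs. Between 59 and 113 barcodes were shared by each pair of libraries (0.416% to 0.636% of the smaller), and none of them was fibroblast-like in both.

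The rule fixes that its genes are detected in the members, so their shares are given only beside the background in neurons. COL1A1 had a UMI in 88.8%, 90.4%, 99.3% and 99.0% of fibroblast-like cells in D28 A, D28 B, D45 A and D45 B, against 8.21%, 1.43%, 4.40% and 15.1% of cells with 10 or more UMIs of STMN2, whose median depth was 7659 to 10381.5 UMIs. The neuron shares ran from 0.982% to 20.8% over all 4 genes. With every cell thinned to 2000 UMIs the shares were 43.5% to 94.6% in fibroblast-like cells and 0.196% to 5.94% in neurons. The median cell held 44, 62, 70 and 72.5 UMIs of the 4 genes together in D28 A, D28 B, D45 A and D45 B.

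Some cells just outside the thresholds were close to the members in level. All 4 genes were detected in 1975 members and 3 of them in 747, while 1351 cells just outside had 2 of the genes and 302 had 3 or 4 of them with 3 or 4 UMIs of STMN2. The level of COL6A1, a chain of type VI collagen, was 597, 852, 1002 and 1212 CPM in members with all 4 genes of D28 A, D28 B, D45 A and D45 B, and 199, 245, 1112 and 893 CPM in members with 3. In cells with 2 of the genes it was 64.5, 61.7, 374 and 166 CPM, below both groups of members in every library. In cells outside only through 3 or 4 UMIs of STMN2 it was 429, 167, 1206 and 1163 CPM, in D45 A above both groups of members. FABP7, a fatty acid binding protein of radial glia and astrocytes, was at 55.9 to 167 CPM in members with all 4 genes, 118 to 611 CPM in members with 3 and 371 to 688 CPM in cells with 2.

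FABP7 also separated clusters within the fibroblast-like cells. Clustering without the rule's 5 genes gave 11 clusters, and in 3 of them (clusters 5, 9 and 10) the FABP7 level was 345 to 576 CPM, against 36.3 to 107 CPM in the other 8. These FABP7-high clusters held 371 of the 1130 members of D28 A (32.8%), 54 of 115 in D28 B (47.0%), 45 of 409 in D45 A (11.0%) and 121 of 1068 in D45 B (11.3%). Cluster 9 was led by SIDT1, CMTM8 and GPX3 and held the floor plate genes CORIN, SPON1, NTN1 and FOXA1, with a median of 14 UMIs of the rule's genes. Cluster 10 was led by SLCO1C1, CRYAB and GFAP and also held AQP4, GFAP and AQP4 being astrocyte genes. Its markers were mixed, with the neuron genes DCX, ELAVL3 and MAPT, the oligodendrocyte lineage genes OLIG1, SOX10 and MBP, and the cartilage genes SOX9 and COL2A1. It held 7, 10, 43 and 109 cells of D28 A, D28 B, D45 A and D45 B, and 24.3% of its cells were called doublets. The label is therefore doubtful for 591 members (21.7%), and the comparison of days is given with and without them; the limit of 300 CPM was set after the data were seen.

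Type I collagen's second chain followed the rule's genes. COL1A2 (ENSSSCG00000015326) was measured at 1073, 2406, 2999 and 4639 CPM in the fibroblast-like cells of D28 A, D28 B, D45 A and D45 B, and at 250, 250, 296 and 590 CPM in the other cells. All 4 fibroblast-like sums lay above all 4 others, by 4.22-fold to 9.99-fold with 5 CPM added to both sides. No test was made of fibroblast-like against other cells, since the rule chose the cells on this contrast.

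Many matrix genes were higher in the fibroblast-like cells. So that no gene enters the counts through the cells being described, they cover genes at 5 CPM or more in the other cells of at least 1 library. Of 152 matrix genes outside the rule, 118 passed, and 52 of these were 2-fold or more higher in all 4 libraries and none 2-fold lower, where 287 of all 12603 such genes (2.28%) were higher and 584 (4.63%) lower. A further 18 matrix genes reached 5 CPM in the fibroblast-like cells alone and were not counted. The rule used this contrast, and the background is given only as a scale. Among fibrillar collagens the higher genes were 3 of 7 (COL1A2, COL5A1 and COL5A2), and among the network and fibril-associated collagens 7 of 13. COL6A1 measured 485, 589, 1028 and 1128 CPM against 51.2, 28.7, 50.6 and 98.1 CPM in other cells. COL12A1, which links fibrils to their surroundings, measured 124, 149, 194 and 252 CPM against 18.5, 26.0, 33.0 and 38.0 CPM. In both genes every fibroblast-like sum exceeded every other sum.

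Basement membrane genes were part of the same pattern, with 7 of 18 higher by 2-fold or more in all 4 libraries. The share over all genes was 2.28%, beside this count and those below. NID1, which encodes nidogen and bridges laminin and type IV collagen, measured 149, 234, 638 and 551 CPM against 7.40, 2.79, 21.9 and 31.7 CPM. LAMA4, a laminin chain, measured 72.1, 179, 257 and 305 CPM against 4.43, 4.47, 17.9 and 29.1 CPM. The proteoglycans gave 2 of 9 (BGN and GPC3), and the elastic and adhesive glycoproteins 16 of 25, the largest count of the matrix lists. POSTN, an adhesive protein of healing connective tissue, measured 274, 546, 327 and 526 CPM against 40.7, 35.6, 54.0 and 67.2 CPM. FN1, fibronectin, varied between the D28 libraries, at 296 and 892 CPM, and measured 516 and 588 CPM on D45.

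Genes that process the matrix were in part higher as well, beside 2.28% of all genes. They included 6 of 19 genes of collagen maturation (among them LOX, which cross-links collagen, SERPINH1, the collagen chaperone, and PCOLCE, which speeds removal of the procollagen tail), 8 of 15 proteases and inhibitors (MMP2, MMP14 and TIMP1 among them) and 3 of 12 matrix receptors. LOX measured 145, 86.6, 164 and 261 CPM in D28 A, D28 B, D45 A and D45 B against 12.6 to 26.5 CPM in other cells. PCOLCE measured 235, 145, 130 and 152 CPM against 3.76 to 18.2 CPM. In both genes every fibroblast-like sum lay above every other sum.

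**Figure D2:**
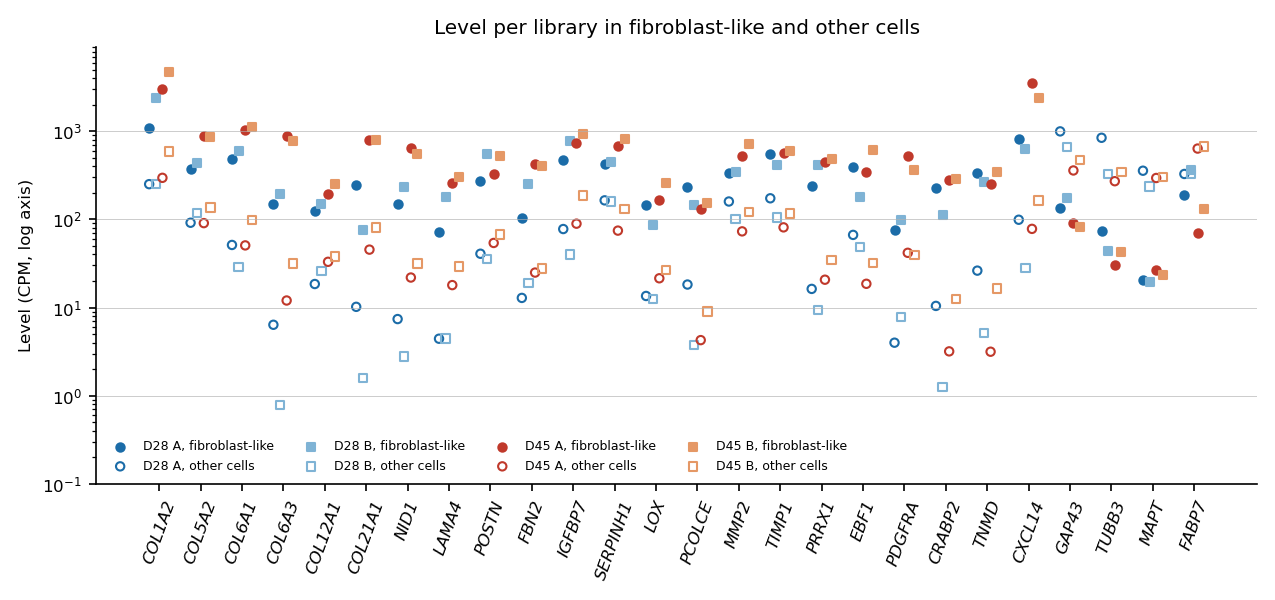
Levels (CPM, log axis) of 26 genes in the fibroblast-like cells (filled symbols) and the other cells (open symbols) of each library, by day and replicate. Matrix and mesenchymal genes lie above the other cells in every library, for example COL1A2 at 1073 to 4639 against 250 to 590 CPM, whereas the neuronal genes GAP43, TUBB3 and MAPT lie below and FABP7 overlaps.

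Some transcription factors and receptors of mesenchyme were higher. Of 20 mesenchymal transcription factors at 5 CPM or more in other cells, 7 were 2-fold or more higher in all 4 libraries, beside 2.28% of all genes, namely PRRX1, PRRX2, EBF1, TWIST2, OSR1, RUNX1 and RUNX2. PRRX1, a homeobox factor of limb and facial mesenchyme, measured 240, 417, 446 and 487 CPM in D28 A, D28 B, D45 A and D45 B against 16.3, 9.31, 20.7 and 34.3 CPM. PDGFRA, the platelet-derived growth factor receptor of fibroblasts and of oligodendrocyte precursors, measured 75.8, 98.5, 520 and 364 CPM against 3.99, 7.81, 41.7 and 39.3 CPM. CRABP2, a retinoic acid carrier found in meningeal fibroblasts, measured 228, 111, 280 and 288 CPM against 10.4, 1.26, 3.18 and 12.4 CPM.

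Meningeal genes were higher in part. Of 12 meningeal and perivascular genes at 5 CPM or more in other cells, 4 (33.3%; PDGFRA, TBX18, SLC26A7 and CRABP2) were 2-fold or more higher in all 4 libraries and none lower, beside 2.28% of all genes. The summed level of the 27 measured genes was 1490, 1427, 1492 and 1356 CPM against 1619, 1235, 637 and 737 CPM in other cells, so D28 A lay below its other cells. IGFBP2 alone made up 955, 1004, 197 and 197 CPM of these sums, against 1528, 1168, 453 and 546 CPM in other cells. ZIC1, a factor of meninges and dorsal neural tube, was at 0.125 to 2.73 CPM against 2.84 to 21.1 CPM. FOXC1, a factor that meninges need to form, was at 0.188, 0.990, 0.171 and 0.776 CPM, from 3, 2, 1 and 12 UMIs, and SLC6A13, a transporter of meningeal fibroblasts, stayed at 0.171 to 0.990 CPM. Both rest on few UMIs and reached at most 0.990 CPM in a fibroblast-like sum, where 3 UMIs give 0.188 CPM in D28 A and 1.49 CPM in D28 B. No ratio to the other cells is given for so few UMIs. FOXD1, another meningeal factor, was at 0.990 to 14.8 CPM.

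Contractile genes gave 7 of 13 higher, beside 2.28% of all genes, with ACTA2 (smooth muscle actin) at 69.3, 71.8, 72.9 and 40.9 CPM against 1.70 to 8.33 CPM in other cells and TAGLN at 174 to 251 against 21.8 to 52.1 CPM. PDGFRB, the receptor of mural cells, measured 39.4, 80.2, 50.5 and 54.8 CPM against 3.27 to 13.1 CPM. The cartilage and bone genes gave 2 of 15 higher (TNMD and MATN4) and 1 lower (SOX6, a cartilage and neural factor), beside 2.28% and 4.63% of all genes. TNMD, tenomodulin of tendon and ligament, measured 334, 264, 250 and 342 CPM against 3.15 to 26.2 CPM, so its lowest fibroblast-like sum lay above its highest other sum.

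Genes of other cell types differed by list. The summed level of 12 neuron genes, without STMN2, was 646, 911, 954 and 819 CPM in the fibroblast-like cells of D28 A, D28 B, D45 A and D45 B against 3707 to 4224 CPM in other cells, and 11 of the 12 were 2-fold or more lower in all 4 libraries, beside 4.63% of all genes. The rule's limit on STMN2 bears on this contrast, which carries no test. Summed levels of 13 progenitor and floor plate genes were 881, 1452, 605 and 680 CPM, and 519, 784, 571 and 584 CPM without the FABP7-high clusters. The 9 astrocyte genes gave 298, 450, 235 and 319 CPM, and 264, 519, 161 and 214 CPM without those clusters. In D28 the astrocyte sums lay above the other cells (162 and 208 CPM) and in D45 below them (770 and 835 CPM). The 9 oligodendrocyte lineage genes gave 93.7, 120, 596 and 443 CPM against 38.2, 99.4, 1170 and 919 CPM in other cells, with PDGFRA, which fibroblasts also express, at 75.8, 98.5, 520 and 364 CPM of these. The part of these genes in the results below was not tested other than by leaving out the clusters.

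The summed levels of 4 further lists were higher in the fibroblast-like than in the other cells of every library. The 12 immune genes gave 2314, 1832, 2473 and 2710 CPM in D28 A, D28 B, D45 A and D45 B against 1480 to 1815 CPM, of which CD74, a chaperone of antigen presentation, made up 2263, 1793, 2430 and 2685 CPM. The 12 neural crest, Schwann and pigment cell genes gave 2923, 1272, 2373 and 3001 CPM against 1566, 915, 1729 and 1926 CPM, of which ERBB3, a neuregulin receptor, made up 2830, 1192, 2236 and 2872 CPM. The 11 endothelial genes gave 44.7, 102, 97.0 and 134 CPM against 36.4 to 44.8 CPM, with ERG, a transcription factor of endothelium and some mesenchyme, at 9.69, 38.1, 55.5 and 89.4 CPM against 0.527 to 2.87 CPM. The 11 epithelial genes gave 46.0, 76.2, 219 and 202 CPM against 16.04 to 23.22 CPM, mostly from CDH1 on D45. Markers of these types varied in level. PTPRC, the leukocyte CD45 gene, was at 18.7 to 37.8 CPM against 19.02 to 32.3 CPM, PECAM1 of endothelium at 12.1 to 24.9 against 12.7 to 20.6 CPM and CLDN5, an endothelial claudin, at 8.37 to 34.2 against 7.18 to 15.6 CPM, whereas KDR and CDH5 of endothelium, CSF1R and TYROBP of microglia and EPCAM of epithelium had 0 to 17 UMIs in each fibroblast-like sum. RGS5 of pericytes, SCX of tendon and MYOD1 of muscle had 0 to 5 UMIs. The part of these lists in the results below was not tested.

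The 20 genes with the highest smallest ratio to the other cells, among those at 50 CPM or more in every fibroblast-like sum, were led by CRABP2, PENK, COL6A3, NID1 and APOD. PENK, the enkephalin precursor, measured 1584, 552, 667 and 301 CPM against 100, 33.4, 16.2 and 17.0 CPM. WFDC1, a secreted protease inhibitor, measured 444, 186, 840 and 894 CPM against 34.0, 10.7, 22.9 and 47.3 CPM. EDNRA, the endothelin receptor of mesenchyme, measured 96.2, 179, 303 and 174 CPM against 1.57 to 8.37 CPM.

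From D28 to D45 the fibroblast-like cells gained the mesenchymal factor TWIST2, the dipeptidase DPEP1, the adhesion genes CNTN1 and CDH1 and the interleukin receptor IL1R1, and had less SPP1, DKK1, FRZB, EGR1 and EGR2. edgeR's quasi-likelihood test on the 4 summed libraries called 519 of 14845 genes higher on D45 (3.5%) and 522 lower (3.52%) at an adjusted p under 0.05. Without the FABP7-high clusters 97 of 13771 genes were higher (0.704%) and 52 lower (0.378%). Both fits shared 139 calls, all in the same direction, which is 13.4% of the first set and 93.3% of the second. Of 988 calls of the first fit whose genes were also tested in the second, 978 kept their sign. The second fit used 2131 of the same 2722 cells, from the same 4 libraries. Agreement between the fits is therefore no independent support. Leaving out D28 B raised the number of calls from 1041 to 5037 and leaving out D45 A lowered it to 607. The p-values measure the spread between these libraries, of which there are only 2 a day. A fit with 1 library left out has a single library on 1 of the days. A call kept in such fits, here and below, is therefore weak support. In such sums a change of level per cell and a change in the mix of cells cannot be told apart.

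**Figure D3:**
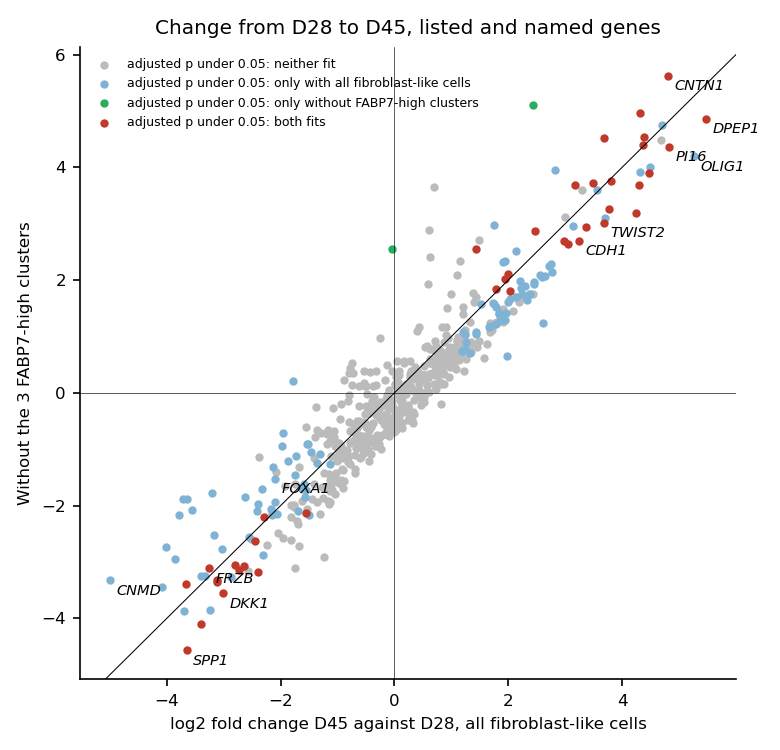
Log2 fold change from D28 to D45 in all fibroblast-like cells (horizontal) and without the 3 FABP7-high clusters (vertical), 1 point per listed or named gene with over 3 UMIs on each day, coloured by which fit called it at an adjusted p under 0.05. Most points lie near the diagonal, genes such as TWIST2, CNTN1, SPP1 and DKK1 were called in both fits, and CNMD, OLIG1 and FOXA1 only with all cells.

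Matrix genes changed in part. Of 144 tested, 18 were higher on D45 and 7 lower, beside 3.5% and 3.52% of all genes, with a median log2 fold change of 0.52 against -0.01 for all genes; without the FABP7-high clusters 3 of 140 were higher, beside 0.704% (MFAP5, PLOD3 and ADAMTS1) and none lower, with a median of 0.30. COL1A2 did not pass (log2 fold change 1.22 ± 0.48 SE, edgeR adjusted p = 0.159). COL6A3 measured 148, 195, 888 and 783 CPM in D28 A, D28 B, D45 A and D45 B, and its log2 fold change was 2.33 ± 0.29 (SE, edgeR adjusted p = 0.0145), and 1.65 without the FABP7-high clusters (edgeR adjusted p = 0.0699). NID1 was at 1.69 ± 0.30 (SE, edgeR adjusted p = 0.0270) and then 1.19 (edgeR adjusted p = 0.112). With all cells COL6A3 kept its call with any 1 library left out, whereas NID1 lost it without either D45 library.

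The 3 matrix genes called in both fits are a fibril component, an enzyme and a protease. MFAP5, a microfibril protein, measured 2.44, 0.495, 69.5 and 25.9 CPM, the D28 values coming from 39 and 1 UMIs. PLOD3, which hydroxylates collagen lysines, measured 22.2, 23.3, 91.5 and 81.6 CPM, a log2 fold change of 1.94 ± 0.22 (SE, edgeR adjusted p = 0.0118). ADAMTS1, a protease that cleaves proteoglycans, measured 29.7, 33.7, 148 and 105 CPM, with a log2 fold change of 2.03 ± 0.26 (SE, edgeR adjusted p = 0.0145). For all 3 both D45 sums exceeded both D28 sums. Without the FABP7-high clusters the call of ADAMTS1 was lost when D45 A was left out (edgeR adjusted p = 0.0906) and that of MFAP5 when D28 A was left out (edgeR adjusted p = 0.0556). The cartilage collagens COL2A1, COL9A1 and COL9A3 were lower on D45 in all cells, at 16.7, 34.2, 5.12 and 3.10 CPM for COL2A1, and were not called without the FABP7-high clusters, of which cluster 5 has COL2A1 among its leading genes.

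Identity genes moved in both directions, 17 higher and 13 lower of 115 tested (median -0.16), where 3.5% of all genes were higher and 3.52% lower, and without the FABP7-high clusters 3 and 2 of 103, where 0.704% and 0.378% were. TWIST2 measured 42.1, 36.6, 583 and 430 CPM in D28 A, D28 B, D45 A and D45 B. Its log2 fold change was 3.68 ± 0.33 (SE, edgeR adjusted p = 0.0115) and 3.02 without the FABP7-high clusters (edgeR adjusted p = 0.0291), and it was called with any 1 library left out. DPEP1, a meningeal fibroblast gene, measured 1.94, 0, 59.3 and 86.4 CPM, where 0 UMIs in D28 B allow up to 1.49 CPM (3 UMIs). ANPEP, aminopeptidase N of pericytes and fibroblasts, measured 11.9, 3.96, 190 and 181 CPM, with a log2 fold change of 4.30 ± 0.48 (SE, edgeR adjusted p = 0.0118).

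The losses included a bone matrix gene. SPP1, osteopontin, measured 132, 44.1, 5.29 and 8.93 CPM, a log2 fold change of -3.65 ± 0.61 (SE, edgeR adjusted p = 0.0241), and -4.57 without the FABP7-high clusters (edgeR adjusted p = 0.0314). IGFBP2, an insulin-like growth factor binding protein of meninges and glia, measured 955, 1004, 197 and 197 CPM, with a log2 fold change of -2.28 ± 0.30 (SE, edgeR adjusted p = 0.0145). In other cells it went from 1528 and 1168 CPM on D28 to 453 and 546 CPM on D45, and its call was lost when either D45 library was left out. PDGFRA had a log2 fold change of 2.39 (edgeR adjusted p = 0.0145) and 1.76 without the FABP7-high clusters (edgeR adjusted p = 0.0595).

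**Figure D4:**
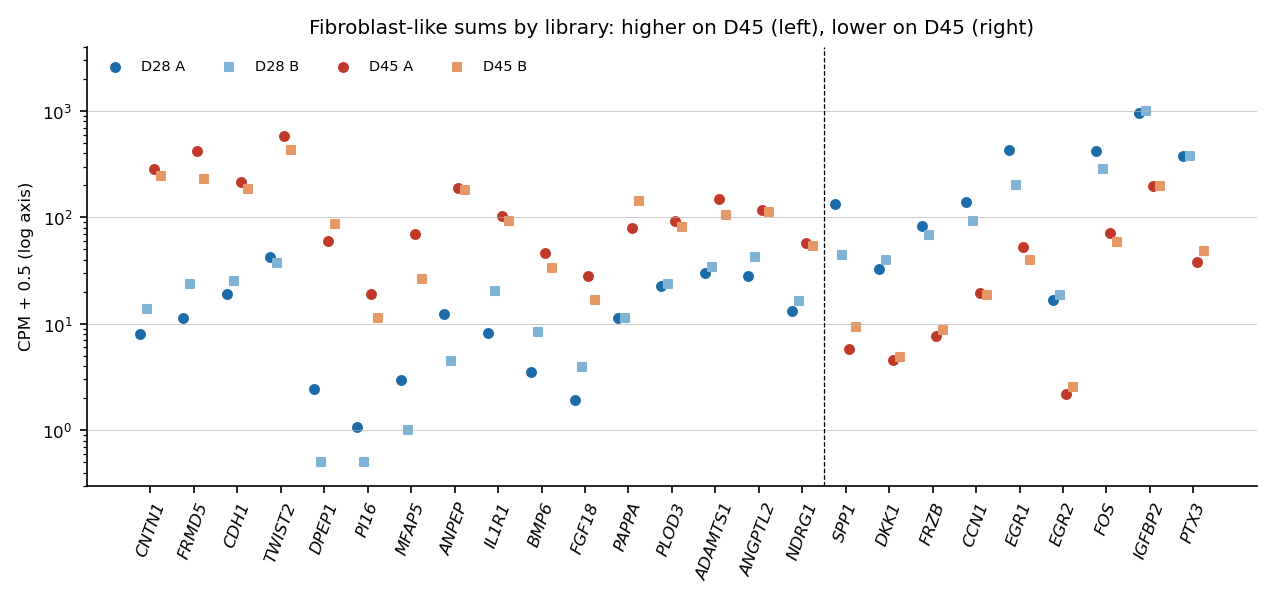
Level (CPM + 0.5, log axis) in the fibroblast-like sums of D28 A, D28 B, D45 A and D45 B for 16 genes called higher and 9 called lower on D45 in both fits. The D28 and D45 libraries do not overlap for any of the genes shown, for example TWIST2 at 42.1 and 36.6 against 583 and 430 CPM. For some of the genes the naming rule required this.

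The largest rises included CNTN1 and FRMD5. CNTN1, a neural adhesion molecule, measured 7.44, 13.4, 283 and 244 CPM, with a log2 fold change of 4.80 ± 0.32 (SE, edgeR adjusted p = 0.0115). FRMD5, a FERM domain protein, measured 10.9, 23.3, 419 and 228 CPM. Both lead cluster 1, which held 564 D45 cells and 1 D28 cell. CDH1, E-cadherin of epithelia, measured 18.6, 24.8, 213 and 185 CPM against 6.84 to 13.7 CPM in other cells, with a log2 fold change of 3.25 ± 0.25 (SE, edgeR adjusted p = 0.0115). Of the 74 genes of other cell types tested, 7 were higher and 6 lower, beside 3.5% and 3.52% of all genes, and without the FABP7-high clusters 5 of 61 were higher, beside 0.704%, among them CDH1, CORIN, BCAN and MBP. Of the rises with all cells 4 were in the oligodendrocyte lineage list (4 of 8, median 2.83; PDGFRA, OLIG1, MBP and MAG), and 1 of 7 passed without the FABP7-high clusters. OLIG1, a factor of that lineage, measured 0.0625, 1.49, 14.7 and 7.50 CPM, was called with all cells (edgeR adjusted p = 0.0288) but not without D28 A (edgeR adjusted p = 0.0699) or without the FABP7-high clusters (edgeR adjusted p = 0.128). MAG, a myelin gene, had 1 and 0 UMIs on D28 and 4.27 and 5.89 CPM on D45 (edgeR adjusted p = 0.0145, and 0.0628 without those clusters), with other cells at 97.9 and 76.6 CPM on D45. CORIN, a floor plate protease, showed the effect of those clusters: its log2 fold change was -0.04 (edgeR adjusted p = 0.946) with all cells and 2.54 (edgeR adjusted p = 0.0490) without them, at 10.3, 9.14, 41.3 and 78.0 CPM, and that call was lost when D28 A was left out (edgeR adjusted p = 0.0519). The calls of the myelin gene MBP (edgeR adjusted p = 0.0546) and of BCAN, a brain proteoglycan (edgeR adjusted p = 0.113), were lost in the same way, and BCAN was not called with all cells (edgeR adjusted p = 0.118). MBP measured 0.938, 3.46, 28.2 and 28.1 CPM while other cells of D45 stood at 418 and 311 CPM.

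Signalling genes changed in both directions. Over all signalling lists 25 of 185 were higher and 15 lower (median 0.02), and without the FABP7-high clusters 6 and 5 of 174. These counts and those of the single lists stand beside 3.5% of all genes higher and 3.52% lower, and 0.704% and 0.378% without those clusters. In the PDGF, FGF, VEGF and HGF list 9 of 37 were higher and 1 lower, and without the FABP7-high clusters 2 of 36 and none. FGF18, a ligand of skeletal and brain development, measured 1.44, 3.46, 27.8 and 16.4 CPM, with a log2 fold change of 3.50 ± 0.47 (SE, edgeR adjusted p = 0.0149). FGFR1, its receptor in mesenchyme, measured 176, 281, 541 and 499 CPM, with a log2 fold change of 1.25 ± 0.29 (SE, edgeR adjusted p = 0.0499), was not called when either D45 library was left out, and was not called without the FABP7-high clusters (edgeR adjusted p = 0.123).

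In the TGF-beta and BMP list 4 of 39 were higher and 5 lower, and without the FABP7-high clusters 1 and 1 of 38. BMP6, a ligand, measured 3.00, 7.92, 46.3 and 33.1 CPM, with a log2 fold change of 3.17 ± 0.41 (SE, edgeR adjusted p = 0.0145). The targets ID2, ID3 and ID4 were lower with all cells, with ID3 at 767, 484, 134 and 146 CPM, but not without the FABP7-high clusters (edgeR adjusted p = 0.0562 for ID3). CCN1, a matrix-bound signalling protein, measured 138, 92.6, 19.1 and 18.1 CPM and was lower in both fits (log2 fold change -2.65 ± 0.32 SE, edgeR adjusted p = 0.0139).

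In the WNT list 5 of 43 were higher and 3 lower, and without the FABP7-high clusters 1 and 2 of 40. The 3 that fell were all secreted inhibitors, SFRP1, FRZB and DKK1, and whether WNT signalling itself changed was not tested. DKK1 measured 32.2, 39.1, 4.10 and 4.40 CPM, with a log2 fold change of -3.01 ± 0.26 (SE, edgeR adjusted p = 0.0115), and FRZB 81.7, 68.3, 7.17 and 8.28 CPM (-3.26 ± 0.28 SE, edgeR adjusted p = 0.0115), and both passed in both fits, with any 1 library left out. SFRP1 was not called without the FABP7-high clusters (edgeR adjusted p = 0.0595) or, with all cells, without D45 A (edgeR adjusted p = 0.252). RSPO4, a WNT agonist, had no UMI in either D28 sum and 6.83 and 4.53 CPM on D45, where 3 UMIs would give 0.188 CPM in D28 A and 1.49 CPM in D28 B. CCN4 was higher with all cells only (1.79 ± 0.25 SE, edgeR adjusted p = 0.0169, then 0.0803).

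Among insulin-like growth factor genes 3 of 18 were higher and 1 lower, and without the FABP7-high clusters 1 and 1 of 18. IGF1 measured 6.75, 8.41, 128 and 48.1 CPM, with a log2 fold change of 3.57 ± 0.49 (SE, edgeR adjusted p = 0.0160, and 0.0537 without the FABP7-high clusters). PAPPA, a protease that frees it from binding proteins, measured 10.8, 10.9, 78.9 and 142 CPM and was called in both fits (3.36 ± 0.36 SE, edgeR adjusted p = 0.0118). In the retinoid list 1 of 16 was higher and 2 lower, and without those clusters none and 1 of 15.

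Chemokine and cytokine genes gave 2 of 22 higher and none lower (1 of 19 and none without the FABP7-high clusters), and both were 2-fold or more above the other cells in all 4 libraries. CXCL14, a chemokine of fibroblasts, measured 822, 627, 3516 and 2371 CPM in D28 A, D28 B, D45 A and D45 B against 99.0, 27.9, 78.0 and 164 CPM in other cells. Its log2 fold change was 2.03 ± 0.43 (SE, edgeR adjusted p = 0.0406), but 1.66 (edgeR adjusted p = 0.107) without the FABP7-high clusters, and the call was lost without either D45 library. IL1R1, the interleukin-1 receptor, measured 7.69, 19.8, 104 and 92.3 CPM and passed in both fits (3.05 ± 0.37 SE, edgeR adjusted p = 0.0139).

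Of 94 genes of cell state, 12 were lower and 2 higher (median -0.53), beside 3.52% and 3.5% of all genes, and without the FABP7-high clusters 3 and 2 of 91, beside 0.378% and 0.704%. Of 20 interferon response genes 6 were lower. ISG15 measured 163, 438, 9.56 and 22.5 CPM in D28 A, D28 B, D45 A and D45 B, and 398, 381, 22.3 and 59.8 CPM in other cells, and the interaction of class and day did not pass for it (edgeR adjusted p = 0.361). Without the FABP7-high clusters none of the 6 was called (edgeR adjusted p = 0.0592 for ISG15). The list's median log2 fold change was -1.17 over 20 genes with all cells and -0.78 over 18 genes without those clusters.

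The immediate early genes FOS, EGR1 and EGR2, which respond to growth signals and to cell handling, were lower in both fits. FOS measured 422, 283, 70.7 and 58.5 CPM, with a log2 fold change of -2.45 ± 0.35 (SE, edgeR adjusted p = 0.0174), and its call without the FABP7-high clusters was lost when D45 B was left out (edgeR adjusted p = 0.0580). EGR1 measured 426, 200, 52.4 and 39.3 CPM, and 156, 42.0, 15.4 and 17.7 CPM in other cells, and the difference of the changes did not pass (edgeR adjusted p = 0.632). Of 20 hypoxia and glycolysis genes 2 were higher and none lower in both fits. Of all genes 3.5% were higher and 3.52% lower, and 0.704% and 0.378% without the FABP7-high clusters. The list's median was 0.14 with all cells and 0.38 without those clusters. Its summed level was 6742, 6764, 5410 and 4978 CPM, lower in both D45 libraries. Without those clusters it was 4438, 5629, 5506 and 4708 CPM, with both D45 libraries between the D28 libraries. NDRG1, a gene induced by low oxygen, measured 12.8, 15.8, 57.5 and 53.4 CPM, with a log2 fold change of 2.00 ± 0.23 (SE, edgeR adjusted p = 0.0118), and ADM, another such gene, 6.50, 6.93, 17.9 and 18.1 CPM, a call that was lost without either D45 library.

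PI16 and CD34 were among the 10 largest rises with all cells, and PTX3 among the 10 largest falls without the FABP7-high clusters. PI16, a peptidase inhibitor that marks progenitor-like fibroblasts of many tissues, measured 0.563, 0, 18.4 and 10.8 CPM in D28 A, D28 B, D45 A and D45 B, the D28 values coming from 9 and 0 UMIs, and was called in both fits (edgeR adjusted p = 0.0145 and 0.0416). CD34, a surface protein of the same cells and of endothelium, measured 2.56, 0.495, 60.6 and 28.0 CPM, with a log2 fold change of 4.32 ± 0.58 (SE, edgeR adjusted p = 0.0150, and 0.0537 without the FABP7-high clusters). PTX3, a secreted pattern recognition protein, measured 380, 374, 37.2 and 47.9 CPM, a log2 fold change of -3.12 ± 0.30 (SE, edgeR adjusted p = 0.0115) that held in both fits. That the libraries of the days did not overlap in these 3 genes was a condition of the naming rule. SIDT1 and CNMD also had large falls with all cells, to 2.05 and 7.38 CPM and to 2.05 and 1.42 CPM on D45, and were not called without the FABP7-high clusters (edgeR adjusted p = 0.0593 and 0.0630). Of 128 listed or named genes called between days, some lost the call without D28 A or without either D45 library, and none changed direction. A change of direction is hardly possible where the libraries of the days do not overlap, so this is no test of stability.

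The clusters are given as a description, since they were made from these same cells. Cluster 1 (565 cells, 1 of them from D28) was led by FRMD5, COL23A1 and COL24A1. Cluster 3 (274 cells, 4 from D28) was led by IGF1, PREX2 and DPEP1, and cluster 7 (196 cells, all from D45 and 186 of them from D45 B) by ALDH1A3, with the fat cell regulator PPARG among its first 10. Cluster 2 (338 cells, 333 of them from D28 A) held SPP1 and the contractile genes ACTA2 and TAGLN. Cluster 6 (228 cells, 2 from D45) was led by DKK1 and PENK. FRMD5, DPEP1, SPP1 and DKK1, all called between days, thus lead clusters that lie almost wholly on 1 day. No cluster size was compared between days, since such genes entered the clustering.

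Other clusters held cells of both days. Cluster 4 (244 cells, with 82, 31, 19 and 112 in D28 A, D28 B, D45 A and D45 B) was led by MGP, the matrix Gla protein that keeps cartilage from calcifying, and IGFBP5. Cluster 8 (192 cells, with 125, 5, 13 and 49) was led by the mitotic genes UBE2C and TOP2A. Cluster 11 (94 cells, with 8, 0, 33 and 53) was led by NMB, NDUFA4L2, ADM and NDRG1. Cluster 4 held a median of 175 UMIs of the rule's genes per cell, cluster 9 a median of 14. Levels of COL1A1 ran from 115 CPM in cluster 9 and 485 CPM in cluster 5 to 6065 CPM in cluster 4.

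**Figure D5:**
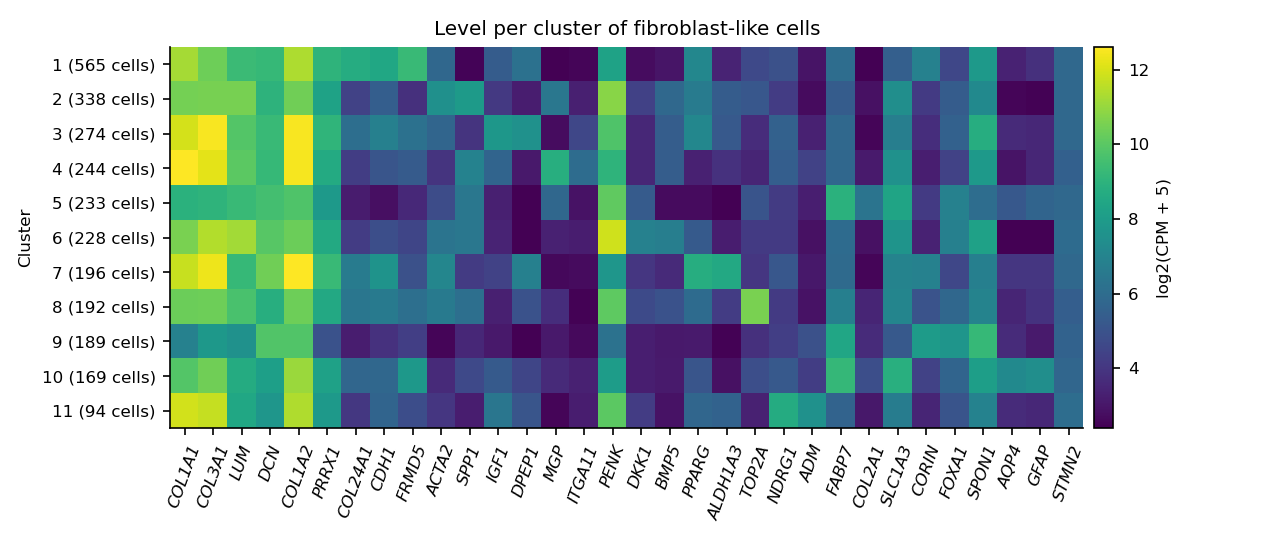
Level, as log2(CPM + 5), of rule genes, lineage genes and leading genes in the 11 clusters of fibroblast-like cells (rows, with their numbers of cells). Clusters 5, 9 and 10 show high FABP7 and lower COL1A1, and cluster 4 the most COL1A1 at 6065 CPM; the genes were picked to show the clusters and carry no test.

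The change from D28 to D45 was set against that of the other cells in an interaction test with both sums of each library. It called 688 of 20216 genes as more positive in fibroblast-like cells (3.4%) and 1005 as more negative (4.97%), and without the FABP7-high clusters 643 of 20211 (3.18%) and 881 (4.36%). Of the 1041 genes called within the fibroblast-like cells, 480 (46.1%) were also called in the interaction. CNTN1 was one, with an interaction log2 fold change of 3.06 ± 0.19 (SE, edgeR adjusted p = 1.94e-05), with other cells at 72.7 and 106 CPM on D28 and 310 and 305 CPM on D45. TWIST2 was not (1.31 ± 0.50 SE, edgeR adjusted p = 0.154), with other cells at 2.58 and 0.948 CPM on D28 and 5.90 and 14.6 CPM on D45. COL6A3 and PDGFRA also gave no call in this test (edgeR adjusted p = 0.797 and 0.335). The other cells included 1351 cells with 2 of the genes COL1A1, COL3A1, LUM and DCN and STMN2 under 3 UMIs. They also included 531 with 3 or 4 of them and 3 or more UMIs of STMN2. The part of such cells in the levels of the other cells was not tested. A missing call thus does not show that other cell types changed in the same way.

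Matrix genes differed from other cells in their change in both directions, 20 more positive and 22 more negative of 151 tested, beside 3.4% and 4.97% of all genes (median 0.12 against -0.02 for all genes). SERPINH1 measured 426, 443, 680 and 808 CPM in the fibroblast-like cells of D28 A, D28 B, D45 A and D45 B and 164, 159, 74.5 and 131 CPM in other cells, an interaction log2 fold change of 1.59 ± 0.19 (SE, edgeR adjusted p = 0.000605), although its change within the fibroblast-like cells did not pass (edgeR adjusted p = 0.141). MMP2, a protease that degrades type IV collagen, gave 1.40 ± 0.22 (SE, edgeR adjusted p = 0.00244). EBF1, a factor of mesenchymal precursors, measured 396, 179, 349 and 604 CPM against 66.6, 48.7, 18.6 and 32.1 CPM, with an interaction log2 fold change of 2.10 ± 0.22 (SE, edgeR adjusted p = 0.000313). APOE, the lipid carrier made by astrocytes and fibroblasts, went from 243 and 234 to 795 and 1017 CPM in fibroblast-like cells and from 24.0 and 10.9 to 305 and 430 CPM in other cells, so the interaction was negative (-2.43 ± 0.27 SE, edgeR adjusted p = 0.000399). These 4 were also called without the FABP7-high clusters.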

How the data were processed

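Single-cell RNA-seq of porcine midbrain-like organoids was analysed from the 2 libraries of D28 and the 2 of D45; the D11 pair served only to count cells. The authors prepared libraries on the GEM-X 3' v4 chemistry of 10x Genomics, aligned reads to Sscrofa11.1 with Cell Ranger 8.0.1 and deposited 1 matrix per library of raw UMI counts per gene and cell barcode, unfiltered by the limits of the study's methods; Seurat 4.3.0 is also named in the submitters' processing notes. The authors' clusters were not used here. Groups came from the sample titles. Total depth was 112777548 to 135311951 UMIs per library, and the smallest fibroblast-like sum, D28 B, held 2020182, so a gene with 0 UMIs there may reach 1.49 CPM.

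The cells, gene lists and tests were chosen with earlier results of these data known. UMI counts were summed over the fibroblast-like and the other cells of each library. Days were compared with edgeR 4.0.16 (R 4.3.3; filterByExpr on the day, scaling by TMM, and the quasi-likelihood F test, with p-values adjusted by Benjamini-Hochberg over all genes tested at a threshold of 0.05). The test of the difference in change used 8 sums with the library as a block. The rule's 5 genes stayed in the fit and were not counted. Ratios to other cells had 5 CPM added, and the filter on the level in other cells was set after the data were seen. Of 758 list genes in 36 lists, 706 matched a symbol. Clusters used scanpy 1.11.5 and igraph 0.11.9 (1998 variable genes, 20 principal components, 15 neighbours, resolution 0.4, seed 1), and doublets were scored with Scrublet at a rate of 0.4% per 1000 barcodes and kept. Mitochondrial content rests on 13 genes matched by symbol. Genes named are those of the lists, the 10 largest rises and falls of each test at 10 CPM or more with days that do not overlap, the 20 largest ratios to other cells, and the 10 leading genes of each cluster. The edgeR step was tested on simulated data. Alternatives were DESeq2 1.42.0, its size factors, no filter on low counts, other cell rules, thinned cells, doublets removed, a mitochondrial limit, a replicate block and each library left out; the fits without the FABP7-high clusters were added after the data were seen. Replicate letters were not treated as pairs. The promoter came from RefSeq (Sscrofa11.1). A few genes that the naming rule selects are not reported here.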

Additional observations from a re-analysis of the deposited data

Results flagged for a closer look

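The change from D28 to D45 differed between fibroblast-like and other cells, by the test of the interaction itself, for 688 genes in the positive and 1005 in the negative direction. The 10 largest positive differences, as log2 fold changes, were LMCD1 5.16, PI16 4.11, SLCO2B1 3.80, PAPPA 3.79, RYR3 3.73, COL24A1 3.61, HLX 3.57, DPEP1 3.52, HTRA3 3.44 and COCH 3.42. LMCD1, a LIM domain protein, measured 9.13, 10.4, 60.5 and 46.7 CPM in the fibroblast-like cells of D28 A, D28 B, D45 A and D45 B, and 7.27, 15.6, 1.05 and 2.29 CPM in other cells. The values of the fibroblast-like and the other cells thus went in opposite directions.

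The 10 largest negative differences were AQP4 -4.91, BCAS1 -4.26, CYTL1 -4.22, SPP1 -4.02, SPARCL1 -3.65, COL9A3 -3.37, MERTK -3.35, CPVL -3.33, ENPP6 -3.24 and MT1X -3.21. For AQP4, the astrocyte water channel, the other cells went from 1.35 and 0.783 CPM to 67.5 and 95.8 CPM, whereas the fibroblast-like sums held 8.31, 10.9, 13.0 and 28.9 CPM. AQP4, SPARCL1, MERTK, CYTL1 and SLCO2B1 were not called within the fibroblast-like cells alone.

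Cells that meet the rule were also present on D11, which no comparison used: 8 in D11 A and 18 in D11 B. These are 0.0613% (exact Clopper-Pearson 95% interval 0.0265 to 0.121) and 0.123% (0.0727 to 0.194) of the cells inside the limits, with medians of 11.5 and 34.5 UMIs of the 4 genes.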

How the results depend on the processing

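The number of genes called between days was 1041 as reported. It was 569 with 20 or more UMIs of the 4 genes required, 390 with all 4 genes required, 2866 with no filter on low counts, 1891 with the replicate letter as a block, and 149 without the FABP7-high clusters, where 65.1% of calls were higher against 49.9% as reported. Leaving out 1 library gave 607 (D45 A) to 5037 (D28 B). The other 6 settings gave 979 to 1437, the highest with DESeq2. Without the FABP7-high clusters, the 149 calls became 790 with DESeq2, 1103 with the block, and 284 (without D45 A) to 4463 (without D28 B) with 1 library left out. The cause of these shifts was not tested. Libraries of different days share only the letter A or B: the A minus B differences of the days correlated at r = -0.07 over 14850 genes, and the block moved no named gene to the other direction. The 1693 interaction calls became 1080 with thinned cells and 2676 with no filter, and stayed within 1233 to 2035 with each library left out. CFI, a complement inhibitor, reversed without the FABP7-high clusters (log2 fold change 0.21 against -1.78). The mean share of fibroblast-like cells on D28 was 6.63% as reported, 4.52% with 500 UMIs in place of 2000 and 4.65% with thinned cells. On D45 it was 6.74%, 3.99% and 5.27%. The other cell rules and limits, these included, moved each mean by less than the SD of the 2 libraries. On D28 that SD (7.91) is larger than the mean, so even a fall to no cells would have stayed within it. With 1 library left out the mean share ran from 1.04% to 12.2% on D28 and from 3.89% to 9.59% on D45. With 2 libraries a day, leaving out 1 always moves the mean by less than their SD. That outcome does not show a stable share. D28 B, with 115 fibroblast-like cells, limits the precision of every D28 level.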
